A study of Mus musculus with 26 samples.

Results

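The genes described here build, bind, move along or modify microtubules, together with the 4 neurofilament subunits. They were 59 of the 55487 genes in each count table, taken from a list of symbols by role: 13 tubulins, 11 proteins that bind the microtubule wall, 4 stathmins, 8 plus-end proteins, 3 minus-end proteins, 11 motors or motor partners, 5 severing or modifying enzymes and 4 neurofilament subunits. RNA was sequenced from the frontal cortex of adolescent littermates: 7 mice with a frameshift in 1 copy of Adnp (HET, labelled mutant) and 7 with the wild-type gene (WT). Open chromatin of the same tissue, measured by ATAC-seq, in which a transposase cuts where DNA is accessible, came as a single peak list for each genotype. The labels give no sex, strain or further allele for these mice. The question was whether the microtubule genes differed between genotypes, since the series names a cytoskeletal defect in its title.

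Microtubules are hollow polymers of alpha- and beta-tubulin with a fast-growing plus end and a slower minus end. In neurons they fill axons and dendrites, where kinesins and dynein carry cargo along them, and enzymes mark the polymer by adding or removing groups such as the last tyrosine of alpha-tubulin. ADNP, a zinc-finger protein best known from chromatin complexes, has also been reported to bind the end-binding proteins that track growing plus ends, which are encoded by Mapre1, Mapre2 and Mapre3.

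Promoter sequence is shown for 5 members that stand for the range seen in the peak lists and in the RNA. RefSeq promoters (250 bases before to 50 after a start, build GRCm38.p6) were given for 41 of the 59 members. Each is printed 5′ to 3′ on the strand of the gene, and capitals mark 3 promoter motifs found on either strand, where a match on the other strand shows as its reverse complement. The TATA box was searched as TATAAA. The second motif was the CCAAT box by its own letters. For the GC box, to which Sp-family factors bind, the letters searched were GGGCGG. Ttl (tubulin tyrosine ligase, chr2:129065697-129065996, plus strand) and Tuba4a (an alpha-tubulin, chr1:75219245-75219544, minus strand) had the smallest p-values among the members and a peak in both lists, and the Tuba4a start used here lies 571 bases inside its gene model. Tubb2a (a beta-tubulin, chr13:34077959-34078258, minus strand) had a TATA box 29 bases before its start and a peak in both lists. Tubb5 (a beta-tubulin, chr17:35838252-35838551, minus strand) had a peak in the HET list only, and Dcx (doublecortin, chrX:143933170-143933469, minus strand) in neither.
Ttl: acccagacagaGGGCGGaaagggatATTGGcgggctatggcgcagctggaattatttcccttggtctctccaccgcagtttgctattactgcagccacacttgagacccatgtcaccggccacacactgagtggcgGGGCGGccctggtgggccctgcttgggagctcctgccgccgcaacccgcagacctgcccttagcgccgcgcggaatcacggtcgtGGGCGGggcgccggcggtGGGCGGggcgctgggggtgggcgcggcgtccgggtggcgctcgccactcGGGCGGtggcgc
Tuba4a: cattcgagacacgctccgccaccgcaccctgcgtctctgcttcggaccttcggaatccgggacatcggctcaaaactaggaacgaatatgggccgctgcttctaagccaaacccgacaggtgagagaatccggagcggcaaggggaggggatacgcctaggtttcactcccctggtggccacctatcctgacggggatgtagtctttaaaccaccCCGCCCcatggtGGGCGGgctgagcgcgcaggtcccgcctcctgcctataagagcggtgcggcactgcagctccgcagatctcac
Tubb2a: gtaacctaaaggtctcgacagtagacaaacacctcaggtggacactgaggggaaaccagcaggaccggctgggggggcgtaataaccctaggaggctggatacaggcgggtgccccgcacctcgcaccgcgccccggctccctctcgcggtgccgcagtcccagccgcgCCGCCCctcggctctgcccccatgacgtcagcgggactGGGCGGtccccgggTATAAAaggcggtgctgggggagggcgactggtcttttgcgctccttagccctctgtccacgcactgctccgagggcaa
Tubb5: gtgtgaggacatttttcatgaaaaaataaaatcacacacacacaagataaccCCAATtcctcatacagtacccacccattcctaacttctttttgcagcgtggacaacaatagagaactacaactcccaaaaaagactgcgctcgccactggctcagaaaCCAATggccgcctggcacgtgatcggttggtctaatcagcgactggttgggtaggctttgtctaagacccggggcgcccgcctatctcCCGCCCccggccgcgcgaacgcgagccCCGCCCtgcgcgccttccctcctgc
Dcx: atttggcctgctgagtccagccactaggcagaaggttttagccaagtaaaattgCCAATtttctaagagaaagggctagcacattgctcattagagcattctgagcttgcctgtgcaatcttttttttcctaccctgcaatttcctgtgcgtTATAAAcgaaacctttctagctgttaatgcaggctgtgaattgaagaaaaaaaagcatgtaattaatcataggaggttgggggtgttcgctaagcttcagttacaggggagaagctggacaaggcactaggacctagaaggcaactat
The Ttl window held 5 GC boxes and 31 CpG dinucleotides, and the Dcx window held no GC box and 3 CpGs. Over the 41 members with an entry, 30 windows held a GC box (73.2% against 35.7% of all 32851 RefSeq promoters of the same length), 15 held a CCAAT box (36.6% against 37.4%) and 7 held a TATA box (17.1% against 13.6%). The median was 24 CpGs per window in the members and 7 over all promoters. The members are also highly expressed genes, so this describes them without setting them apart: their median WT level was 40.1 CPM per kb of exon (CPM are counts scaled to library size by TMM), and that of all genes tested was 3.46.

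Library totals ran from 32814841 to 48291175 counts, and the members took 2.14% to 2.50% of them. Adnp itself had 6.55 ± 0.87 CPM in the WT and 6.90 ± 1.30 CPM in the HET libraries (SD, n = 7 each; edgeR adjusted p 0.772), and since mRNA of a frameshifted copy can persist, its level is no test of the labels. The libraries differed in markers of neighbouring regions and cell types. The summed level of 9 excitatory neuron markers ran from 928 to 5452 CPM (median 3073) in HET and from 2400 to 6536 CPM (median 4853) in WT, and all 9 had a negative log2 fold change (median -0.86). HET library 4, HET library 1 and WT library 4 had the lowest sums. The summed level of 10 thalamic neuron markers ran from 344 to 2417 CPM in HET and from 351 to 988 CPM in WT, and 9 of the 10 had a positive log2 fold change (median 1.14). For 10 striatal neuron markers the sum ran from 188 to 1942 CPM in HET and from 170 to 1591 CPM in WT. Of these, 9 had a positive log2 fold change (median 0.31). WT library 4 had the highest striatal sum of the WT libraries, with WT library 6 next at 795 CPM. HET library 6 had the lowest sum of 8 oligodendrocyte markers in all 14 libraries, 2279 CPM, where WT ran from 4443 to 7653 CPM. It also had the highest sum of 5 choroid plexus markers, 731.7 CPM, where WT ran from 8.625 to 425.2 CPM. In these bulk samples, fewer cells of a type and less RNA per cell cannot be told apart.

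No member passed the threshold between genotypes. In edgeR's quasi-likelihood test with Benjamini-Hochberg adjustment over 18050 genes, 0 of the 59 members had an adjusted p under 0.05, against 175 genes or 0.97% of all genes tested. At an unadjusted p under 0.05 there were 13 members, 10 lower and 3 higher in HET, beside 10.4% of all genes lower and 11.8% higher. That is 22.0% of the members, and the share over all genes was 22.2%. At an adjusted p under 0.1 there were 4 members, all lower (Tuba4a, Ttl, Tuba1c and Stmn1), beside 6.62% of all genes. Each of the next 5 settings called more genes over the whole table, in both directions. DESeq2 called 5 members lower (8.47% of them, beside 4.24% of all genes it tested) and 0 higher (beside 4.43%). By limma-voom with sample weights 6 members were lower (10.2% beside 5.46%) and 1 higher (1.69% beside 5.26%). Leaving out WT library 4 gave 8 members lower in edgeR (13.6% beside 4.83%). Without HET library 6 there were 3 lower (5.08% beside 2.77%) and 1 higher (1.69% beside 3.32%), and without HET library 5 there was 1 lower (1.69% beside 0.553%). No other fit with 1 library left out called a member. These shares describe the list and were not tested. The median log2 fold change of the members was -0.03, with 21 above and 38 below 0, beside a median of 0.02 over all genes, 53.3% of which were above 0. For no member did the 7 HET and 7 WT libraries separate without overlap; over all genes, HET lay wholly below WT in 0.283% and wholly above in 0.432%.

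**Figure D1:**
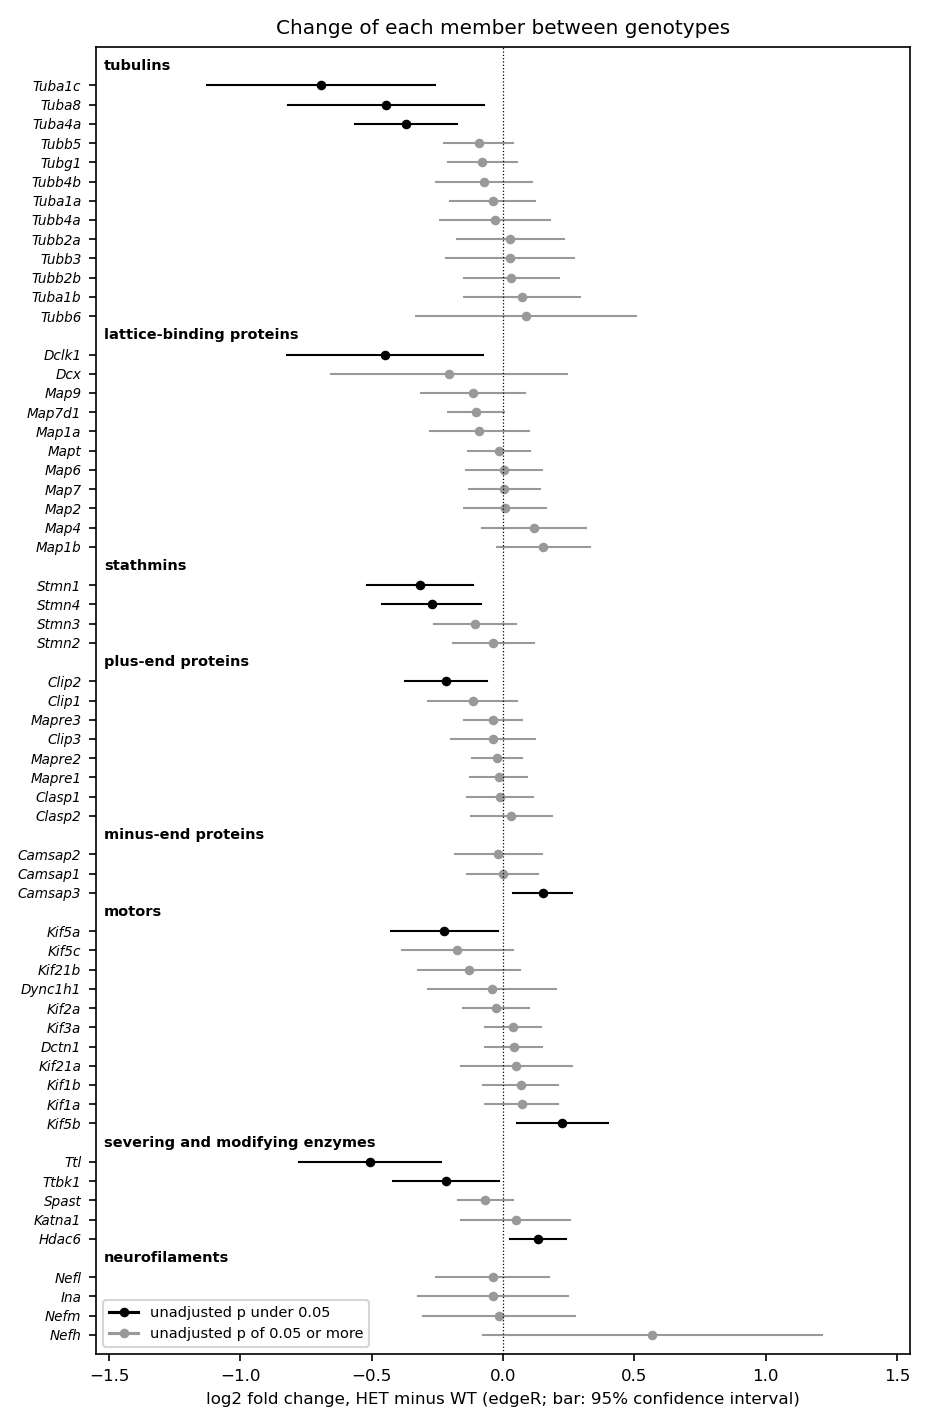
Log2 fold change of each of the 59 members (horizontal axis, HET minus WT, edgeR), grouped by role, with 95% confidence intervals as bars and black for an unadjusted p under 0.05. The 10 black intervals left of 0 include 3 alpha-tubulins, 2 stathmins and Ttl, and Nefh has the widest interval, from -0.08 to 1.21.

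Of the 13 tubulins, 3 alpha-tubulins had an unadjusted p under 0.05, all lower in HET, and no beta-tubulin did. That is 23.1% of the tubulins, beside 22.2% of all genes in both directions and 10.4% lower. Tuba4a encodes an alpha-tubulin without the terminal tyrosine that most alpha-tubulin genes encode (ENSMUSG00000026202, GRCm38 chromosome 1, 75214228 to 75219865). It ran from 308.2 to 507.2 CPM (median 437.4) in WT and from 292.4 to 363.8 CPM (median 319.6) in HET. In 6 of the 7 WT libraries it stood above every HET library, and WT library 4 lay among the HET values. The log2 fold change was -0.37 (SE 0.09, adjusted p 0.0623). With 1 library left out, Tuba4a was called in 2 fits. The adjusted p ran from 0.00638 (without WT library 4, log2 fold change -0.43) to 0.129. With the excitatory marker mean in the model the log2 fold change was -0.21 (adjusted p 0.34). Reads of Tuba4a cannot be told apart by strand from those of Stk16, whose exons overlap it on the other strand and whose own level was 42.7 CPM.

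Tuba1c, a minor alpha-tubulin of the cortex, ran from 1.32 to 2.46 CPM (median 1.97) in WT and from 0.860 to 1.69 CPM (median 1.03) in HET. Its log2 fold change was -0.69 (SE 0.20, adjusted p 0.0852), and 5 HET libraries lay below the lowest WT library. Tuba8, a divergent alpha-tubulin, had medians of 7.84 CPM in WT and 6.29 CPM in HET, with a log2 fold change of -0.45 (SE 0.18, adjusted p 0.158), and of -0.09 (adjusted p 0.827) with the excitatory marker mean in the model. No such difference was detected in the main isotypes: Tuba1a, the major neuronal alpha-tubulin, had a log2 fold change of -0.04, Tuba1b of 0.07, Tubb3, the neuron-specific beta-tubulin, of 0.03, and Tubb4a, the most abundant member of the family per kb, of -0.03. Their adjusted p-values lay between 0.722 and 0.916. With the excitatory marker mean in the model, log2 fold changes were -0.148 for Tuba1a, -0.13 for Tuba1b, -0.222 for Tubb3 and -0.155 for Tubb4a. The edgeR adjusted p-values of these isotypes then ran from 0.327 to 0.579. Tuba4a was at -0.209 in that model, so the contrast between it and these isotypes was not seen there.

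Expressed as a share of all alpha-tubulin counts per kb of exon, Tuba4a made up 20.4% ± 2.73 in WT and 16.8% ± 2.68 in HET (SD, n = 7 each), with overlapping ranges of 15.8% to 24.1% and 12.8% to 20.4%. Tuba1a made up 51.4% in WT and 52.6% in HET, and Tuba1b 27.4% and 30.0%. Among the beta-tubulins, Tubb4a led with 32.4% in WT and 31.9% in HET, followed by Tubb2a with 23.0% and 23.8% and Tubb3 with 16.3% and 16.8%. Tubulin genes are near-identical in sequence and reads mapping to several places were not counted, so these shares are uncertain.

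**Figure D2:**
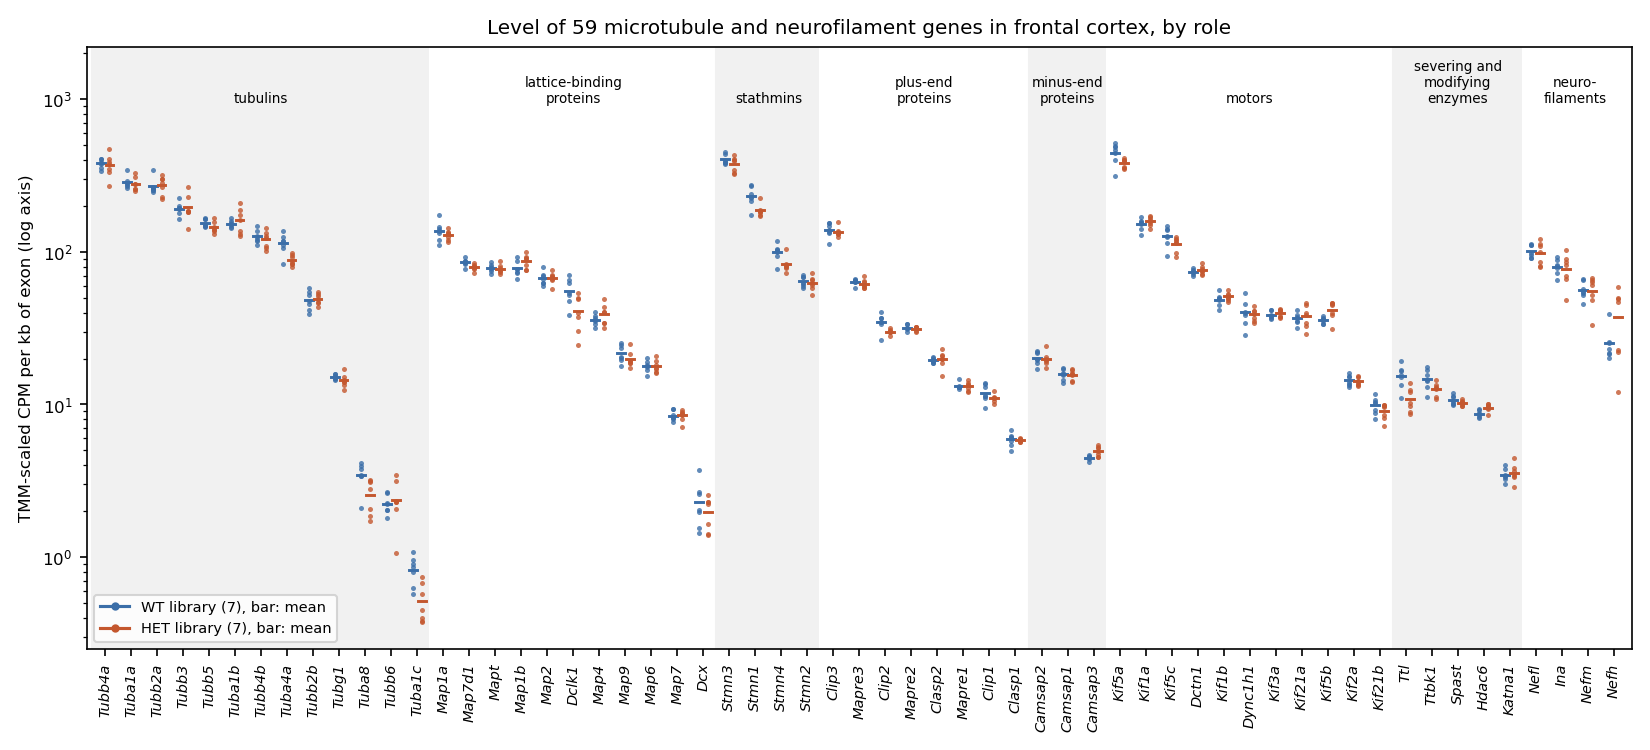
Level of each member in each of 14 libraries (vertical log axis, CPM per kb of exon), ordered within its role by the WT mean, WT in blue and HET in orange, with bars for means. Kif5a, Stmn3 and Tubb4a lead at 446, 404 and 379 in WT, Tuba1c is lowest at 0.827, and the colours overlap in every gene.

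Levels spanned a wide range within each role. The length used is that of all annotated exons of a gene, not of the transcripts present, so order and shares per kb are approximate. Stmn3 and Stmn2, with 1136 and 5602 bases of exon, had WT means of 459.4 and 358.8 CPM before division by length. Tubb4a (379 ± 25.8 CPM per kb in WT) overlapped Tuba1a (288 ± 27.6) over libraries, and Tuba1a overlapped Tubb2a (270 ± 33.8), which stood wholly above Tubb3 (192 ± 18.5). Among the wall-binding proteins Map1a, a large protein of dendrites, led at 137 ± 20.7, wholly above Map7d1 at 85.2 ± 4.39. Exons of Map1a overlap those of Ppip5k1 (121.8 CPM) on the other strand, so reads of the shared bases cannot be told apart. Mapt, which encodes tau, stood at 78.3 ± 4.50 and Map2, its dendritic relative, at 67.3 ± 6.59, with overlapping ranges. Dcx, known from migrating young neurons, was lowest of the role at 2.29 ± 0.78.

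Of the 11 wall-binding proteins, 1 had an unadjusted p under 0.05 (9.09%, beside 22.2% of all genes). Dclk1, a doublecortin-like kinase, ran from 590.6 to 1077 CPM (median 817.9) in WT and from 375.3 to 824.4 CPM (median 608.6) in HET. HET library 4 and HET library 1, the lowest in excitatory markers, were the lowest 2 of all 14 libraries for Dclk1, and WT library 4 was the lowest WT library. Its log2 fold change was -0.45 (SE 0.17, adjusted p 0.156), and with the excitatory marker mean in the edgeR model it was -0.06 (adjusted p 0.851). For Mapt, Map2 and Dcx the log2 fold changes were -0.02, 0.01 and -0.21, with adjusted p-values from 0.598 to 0.972. Map1b, an early MAP of growing axons, had medians of 1215 CPM in WT and 1426 CPM in HET, a log2 fold change of 0.15 (adjusted p 0.289).

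Stathmins bind free tubulin and favour disassembly. All 4 had a negative log2 fold change, where 53.3% of all genes were above 0. Of the 4, 2 had an unadjusted p under 0.05, beside 10.4% of all genes lower at that p. With 4 genes, these shares describe the role and were not tested. Stmn1 ran from 333.7 to 526.0 CPM (median 442.7) in WT and from 331.8 to 434.4 CPM (median 351.0) in HET. In 6 HET libraries Stmn1 lay between 331.8 and 364.2 CPM, below every WT library except WT library 4, and HET library 4 stood alone above them. The log2 fold change was -0.32 (SE 0.09, adjusted p 0.0866). Stmn4 had medians of 195.7 CPM in WT and 155.3 CPM in HET, with HET library 4 again the highest HET library at 198.8 CPM, and its log2 fold change was -0.27 (SE 0.09, adjusted p 0.107). Unlike Dclk1, both were close to their value with the excitatory marker mean in the model (-0.30 for Stmn1, adjusted p 0.312, and -0.29 for Stmn4, adjusted p 0.290). Stmn3, the most abundant stathmin per kb, and Stmn2, known from growth cones, had log2 fold changes of -0.11 and -0.04 (adjusted p 0.410 and 0.803).

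**Figure D3:**
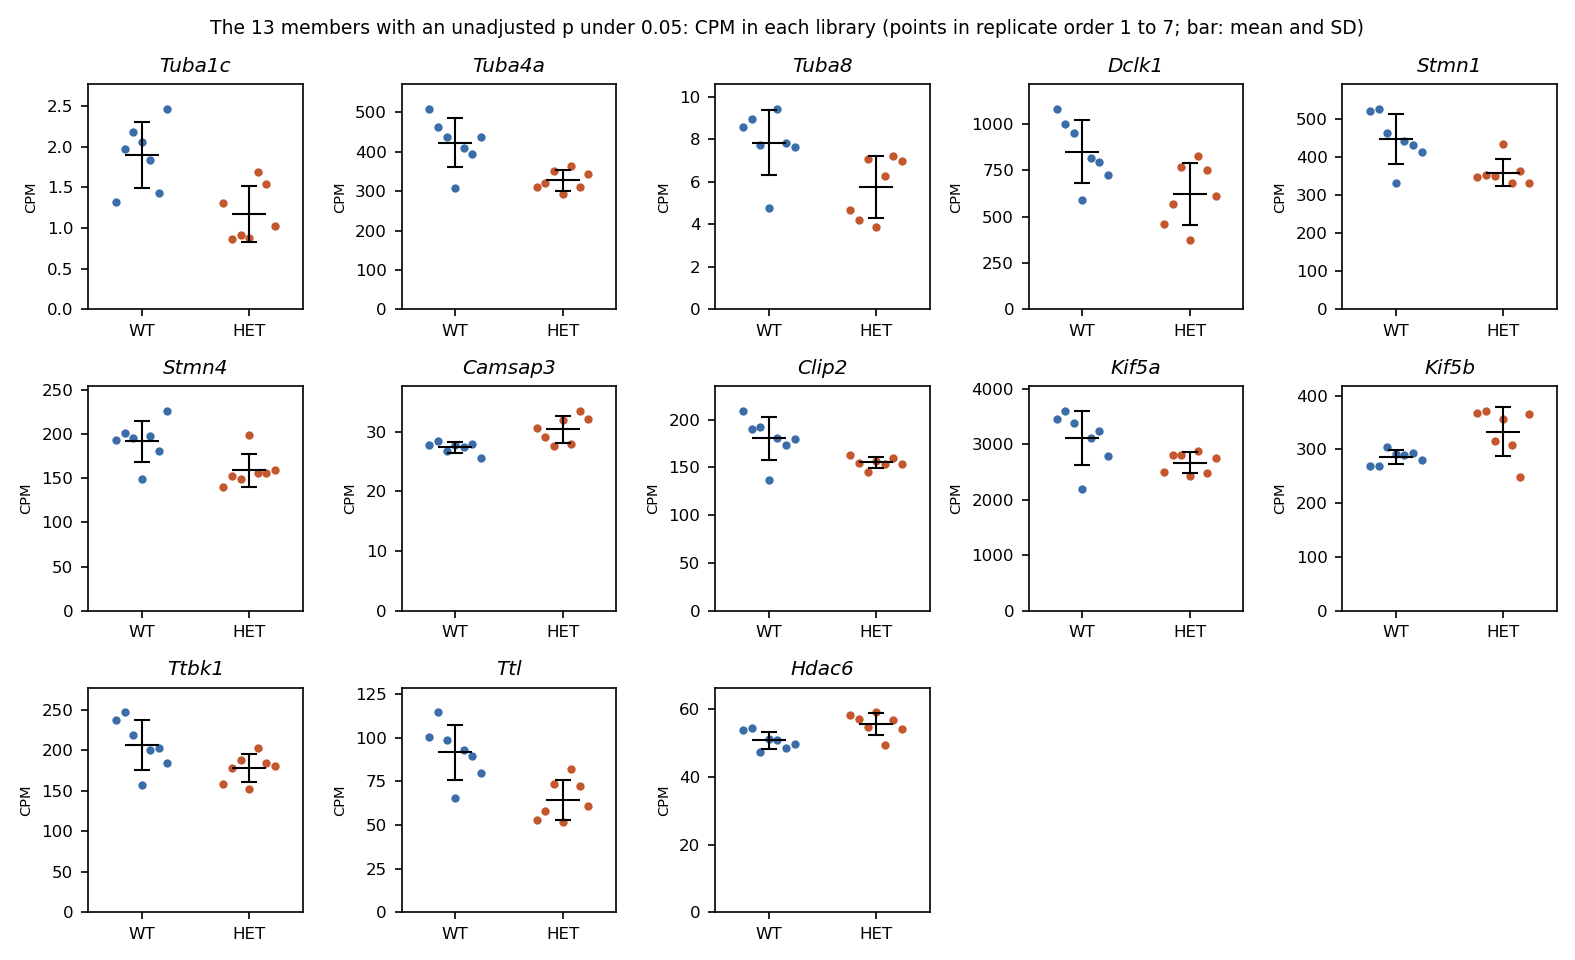
CPM in each of the 14 libraries for the 13 members with an unadjusted p under 0.05 (vertical axis from 0), WT in blue and HET in orange, with points in replicate order and bars for mean and SD. Library 4 is the lowest WT point for Ttl, Tuba4a, Stmn1, Clip2 and Kif5a, and the 3 members higher in HET (Camsap3, Kif5b and Hdac6) differ by less than the fold of Ttl.

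No difference was detected in the end-binding proteins. Mapre1, which encodes EB1, had medians of 102.4 CPM in WT and 104.1 CPM in HET, Mapre2 of 325.0 and 324.9 CPM, and Mapre3, the neuronal EB3, of 221.5 and 211.1 CPM. The 95% confidence intervals of the log2 fold change ran from -0.12 to 0.09 for Mapre1, from -0.12 to 0.07 for Mapre2 and from -0.15 to 0.07 for Mapre3, with adjusted p-values from 0.704 to 0.883. Mapre3 made up 58.5% of their summed counts per kb in WT and 58.1% in HET, Mapre2 29.3% and 29.6%, and Mapre1 12.2% and 12.3%. Clip2, a linker of plus ends to membranes, was the only plus-end protein with an unadjusted p under 0.05 (12.5% of the role, beside 22.2% of all genes). It ran from 137.2 to 209.1 CPM (median 181.1) in WT and from 145.1 to 163.3 CPM (median 155.0) in HET. All 7 HET libraries lay below 6 of the 7 WT libraries, and WT library 4 was below them all. This was a log2 fold change of -0.22 (SE 0.07, adjusted p 0.115), and without WT library 4 it was -0.27 (adjusted p 0.0096). No other fit with 1 library left out called Clip2, and the adjusted p ran up to 0.228. With the excitatory marker mean in the model the log2 fold change was -0.14 (adjusted p 0.516). Clip3, the most abundant member of this role per kb, had a log2 fold change of -0.04.

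At minus ends, Camsap3, which caps and anchors them, had medians of 27.7 CPM in WT and 30.5 CPM in HET. In 5 HET libraries it stood above the highest WT library, with a log2 fold change of 0.15 (SE 0.05, adjusted p 0.124). Its exons overlap those of Xab2 on the other strand, which at 35.7 CPM is at a level like its own, so reads of the shared bases cannot be told apart. Camsap2, the most abundant of the 3 per kb, had a log2 fold change of -0.02.

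Of the 11 motors and motor partners none passed the threshold, with 6 log2 fold changes above 0 and 5 below. At an unadjusted p under 0.05 there was 1 each way, or 18.2% of them beside the 22.2% of all genes given above. Kif5a, the neuronal kinesin-1 heavy chain and the most abundant member per kb, ran from 2197 to 3602 CPM (median 3245) in WT and from 2431 to 2889 CPM (median 2753) in HET. WT library 4 was below every HET library. The log2 fold change was -0.22 (SE 0.10, adjusted p 0.184), and -0.06 with the excitatory marker mean in the model. Kif5b, the kinesin-1 heavy chain of all cells, ran from 268.8 to 304.4 CPM (median 289.3) in WT and from 247.9 to 371.4 CPM (median 356.5) in HET. In 6 HET libraries it stood above every WT library, with a log2 fold change of 0.23 (SE 0.08, adjusted p 0.130). HET library 6, the lowest in oligodendrocyte markers, was below every WT library for Kif5b, and a link between the 2 was not tested. Kif5a made up 73.1% ± 1.37 of the 3 kinesin-1 heavy chains per kb in WT and 71.2% ± 0.77 in HET, and Kif5b 6.00% ± 1.10 and 7.82% ± 1.22. Dync1h1, the dynein heavy chain, had a log2 fold change of -0.04 and Dctn1, the large dynactin subunit, of 0.04.

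Among the severing and modifying enzymes, Ttl returns the terminal tyrosine to alpha-tubulin. It ran from 65.5 to 114.4 CPM (median 92.9) in WT and from 51.6 to 82.0 CPM (median 60.7) in HET. In 4 HET libraries Ttl lay below every WT library, and the other 3 lay within the WT range, above WT library 4. Its log2 fold change was -0.51 (SE 0.13, adjusted p 0.0626). It was -0.25 (adjusted p 0.329) with the excitatory marker mean in the model and -0.47 (adjusted p 0.0301) without the 3 libraries lowest in excitatory markers. Ttbk1, a tau and tubulin kinase, had medians of 203.1 CPM in WT and 180.8 CPM in HET, with a log2 fold change of -0.22 (SE 0.09, adjusted p 0.191) that was -0.02 with the excitatory marker mean in the model. Hdac6, which removes acetyl groups from tubulin, had medians of 50.8 and 56.8 CPM, with a log2 fold change of 0.13 (SE 0.05, adjusted p 0.145).

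The 3 neurofilament genes Nefl, Nefm and Ina had log2 fold changes of -0.04, -0.02 and -0.04, with adjusted p-values from 0.852 to 0.956. Nefl and Nefm overlap each other in exons on opposite strands, and Ina overlaps Nt5c2 (80.4 CPM), so reads of the shared bases cannot be told apart. Nefh, the heavy subunit of large axons, ran from 80.4 to 155.4 CPM (median 92.9) in WT and from 48.1 to 234.0 CPM (median 186.4) in HET. In 4 HET libraries it stood above every WT library, in 2 it lay within the WT range and in 1 below it. This gave a log2 fold change of 0.57 (SE 0.30, adjusted p 0.281). The 4 high HET libraries were 4, 2, 1 and 7, which had the highest thalamic marker sums of the 7, and WT library 7, highest of its group for Nefh, had the highest thalamic sum of the WT libraries. With the excitatory marker mean alone in the model the log2 fold change of Nefh was 0.09 (adjusted p 0.939). With excitatory, striatal and thalamic marker means it was -0.02 (adjusted p 0.981).

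**Figure D4:**
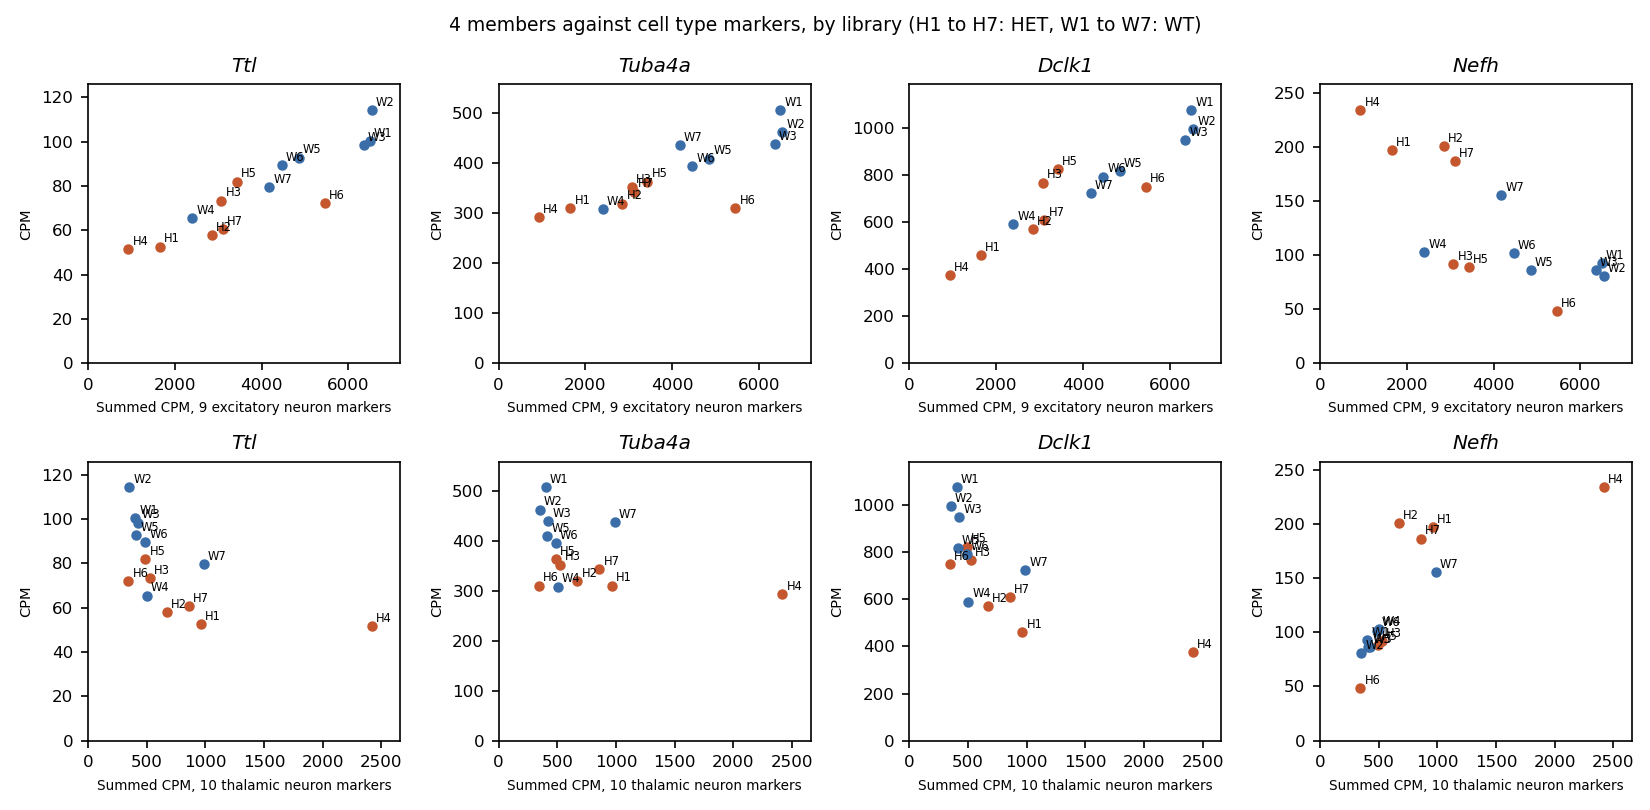
CPM of Ttl, Tuba4a, Dclk1 and Nefh (vertical axes) against the summed CPM of 9 excitatory (top) and 10 thalamic (bottom) neuron markers in each library, WT in blue and HET in orange. Dclk1 is lowest where excitatory markers are lowest (HET library 4, 928 CPM), Tuba4a and Ttl are also lowest in that library, and Nefh is highest in HET library 4, at a thalamic sum of 2417 CPM.

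The part that marker levels have in these differences was not tested. With the excitatory marker mean in the model, the log2 fold changes of Tuba4a (-0.21), Clip2 (-0.14) and Kif5b (0.14) were nearer to 0 than without it. Those of Camsap3 (0.14) and Tuba1c (-0.63) were close to their value without it, and those of Tubb3 (-0.222) and Camsap2 (0.132) were farther from 0. In that model edgeR called 0 members, beside 13 of the 18050 genes tested.

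A list of 148 other microtubule genes, set by role, gave 3 calls: 1 higher and 2 lower in HET, beside 0.587% and 0.382% of all genes tested. Its median log2 fold change was 0.02. Dynll1, a light chain of dynein that also sits in many other complexes, ran from 193.3 to 255.4 CPM (median 216.4) in WT and from 138.1 to 192.8 CPM (median 171.6) in HET. Its groups did not overlap, and it fell with a log2 fold change of -0.39 (SE 0.08, adjusted p 0.0375). Dctn3, a dynactin subunit, fell from a median of 76.7 CPM to 64.4 CPM (log2 fold change -0.24, SE 0.05, adjusted p 0.0461). Tubgcp3, a core subunit of the gamma-tubulin ring that seeds microtubules, rose from a median of 41.1 CPM to 47.3 CPM (log2 fold change 0.21, SE 0.04, adjusted p 0.0375). Groups did not overlap for either of them.

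These calls changed with the setting. DESeq2 and limma-voom called all 3 genes. With the excitatory marker mean in the edgeR model the log2 fold change was -0.24 for Dynll1 (adjusted p 0.130), -0.18 for Dctn3 (adjusted p 0.217) and 0.18 for Tubgcp3 (adjusted p 0.209). With 1 library left out, all 3 genes were called without HET library 5, HET library 6 or WT library 4, and Dynll1 also without HET library 3. Leaving out any other library ended the calls, with adjusted p-values up to 0.103 and log2 fold changes of the same sign. Just past the threshold were Mid2 (log2 fold change 0.40, adjusted p 0.0525), a microtubule-binding ubiquitin ligase, Tbcd (0.27, adjusted p 0.0539), a tubulin folding cofactor, and Cdk5r2 (-0.61, adjusted p 0.0652), an activator of Cdk5, which phosphorylates tau. With the excitatory marker mean in the model their log2 fold changes were 0.24, 0.20 and -0.30, with adjusted p-values from 0.235 to 0.349.

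The peak lists held 19272 peaks for WT (median width 490 bases) and 30862 for HET (median width 423 bases), with no heights, so each comparison is of 1 list with 1 list and has no test. A peak lay within 1000 bases of the gene start for 50 members in the WT list (84.7%, against 57.2% of all genes tested) and for 54 in the HET list (91.5% against 63.6%). There were 4 members with one in the HET list only (6.78% against 8.08% of all genes tested): Tubb5, Map7, Mapre2 and Stmn4. No member had one in the WT list only (1.62% of all genes tested). With only the widest HET peaks, as many as the WT list holds, 3 members were HET-only and 1 was WT-only (4.68% and 4.19% of all genes tested), and within 500 bases of the start 5 and 1 were (7.89% and 1.76%). Within 2500 bases of the start the counts were 3 and 0 (8.73% and 1.6%). Tuba1c, Tubb2b, Tubb6, Dcx and Ttbk1 had none in either list (8.47% against 34.7% of all genes tested), and these 5 had a median WT level of 2.29 CPM per kb against 52.1 in the 50 with a peak in both.

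For Tubb5 the HET peak spanned 185 bases over the promoter printed above (chr17:35838250-35838434), and Stmn4 had a peak of 454 bases centred 7 bases after its start. At Ttl the WT peak covered 268 of the 300 printed bases and the HET peak 61, and at Tuba4a both covered all 300. The Ttl peaks were of similar width (591 bases in WT and 582 in HET), and both spanned the gene start. They were centred 82 and 284 bases after it. Of the 50 members with a peak in both lists, the widest HET peak was wider than the WT peak in 25 and narrower in 25. The median width was 745.5 bases in each list.

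**Figure D5:**
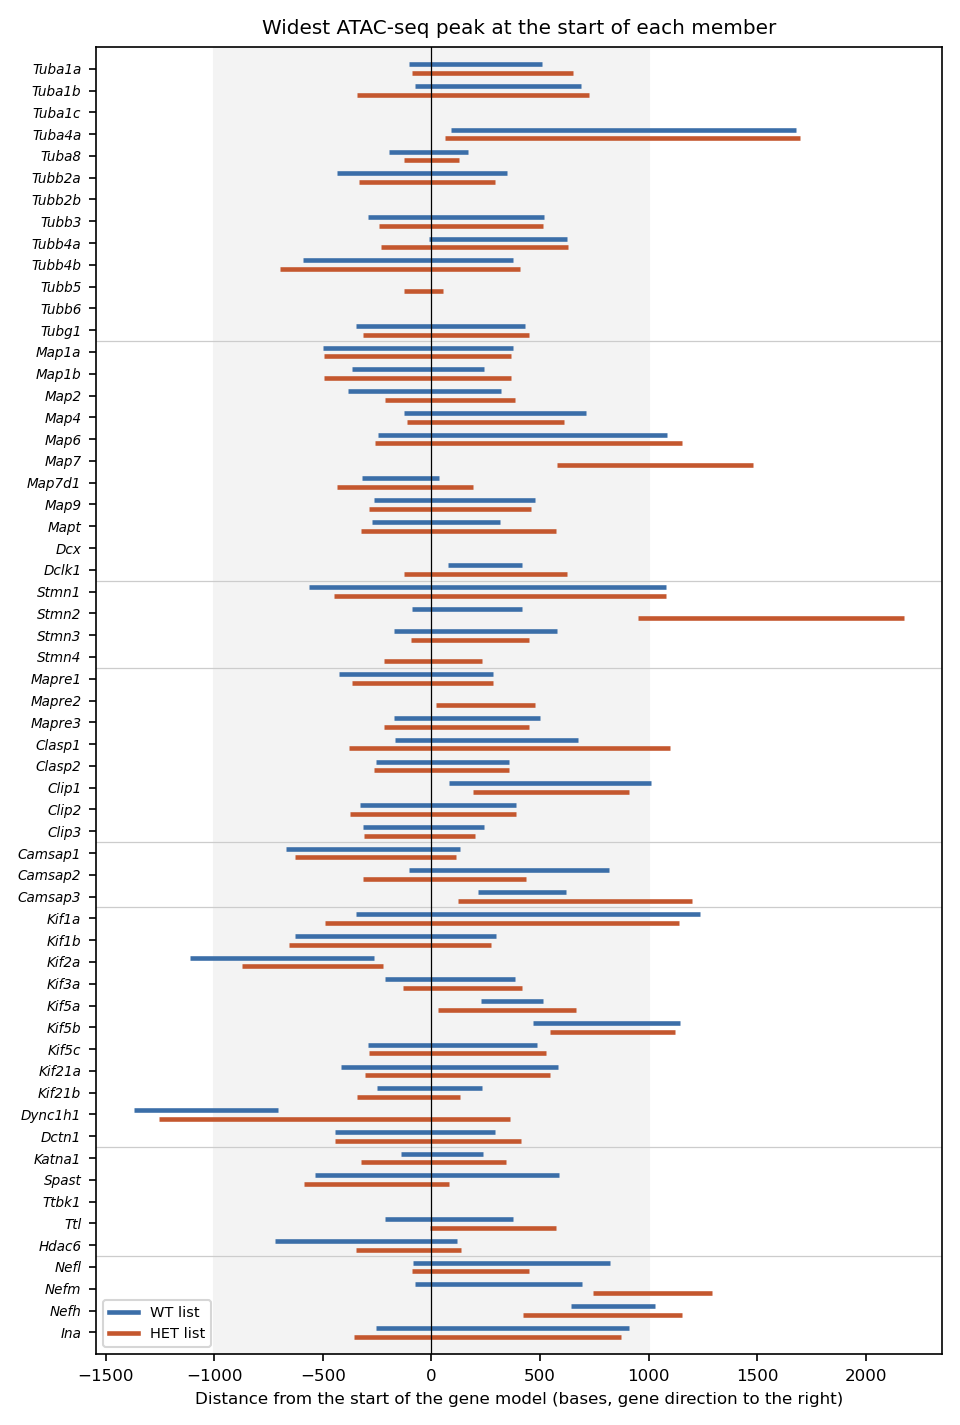
Widest ATAC-seq peak within 1000 bases of the start of each member (horizontal axis, bases from the start in the direction of the gene), WT list in blue and HET list in orange, with the window shaded. Tubb5, Map7, Mapre2 and Stmn4 have an orange bar only, and 5 members have none.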

How the data were processed

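The authors deposited raw counts per gene for each library. They were made with featureCounts 2.0.1 over the exons of Ensembl release 102, ignoring strand and leaving out reads that map to several places, per the file headers. STAR, Trimmomatic and DESeq2 are named per the submitters' processing notes, with build GRCm38.p6. ATAC-seq gave 1 list of peak intervals per genotype; the caller's settings, and which libraries were merged, were not given in the sources used here. PAT, Control and Hi-C samples were not used here.

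Genes were kept by filterByExpr (18050 of 55487, all 59 members among them), TMM-scaled, and compared by genotype alone in the robust quasi-likelihood test of edgeR 4.0.16 (Benjamini-Hochberg over all genes, threshold 0.05), which was checked on simulated data. The simulated libraries did not differ in cell types or regions, so that check does not cover such differences. The common biological coefficient of variation was 0.248, and p-values measure the spread between 7 mice per genotype. Levels between genes are TMM-scaled CPM per kb of exon. A promoter peak overlapped the gene start ± 1000 bases by at least 1 base. Alternatives were DESeq2 1.42.0, its size factors, limma-voom 3.58.1, other filters, an adjusted p under 0.1, marker covariates, a replicate block and each library left out. Members and lists were chosen with earlier results of these data known. Named genes were members at unadjusted p under 0.05, the most abundant of each role, end-binding proteins, Tubb3, Mapt, Map2, Dcx and neurofilaments, called genes of the wider list and its 3 smallest p-values each way, and members with a promoter peak in 1 list or none; Tuba1a, Tuba1b, Map1b, Stmn2, Dync1h1, Dctn1 and others were chosen after their values were seen.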

Additional observations from a re-analysis of the deposited data

Results flagged for a closer look

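Of 58 groups of 7 libraries tested, for the named members, 7 held 1 library far from the other 6, where chance alone would flag about 1 group in 20. The groups are different genes in the same libraries and so are not independent, and the number flagged was not tested against that rate. WT library 4, low in excitatory and high in striatal markers, was low for Tuba8 (4.76 CPM, with the next WT library at 7.64) and for Mapre3 (199.4 CPM, next 218.7). HET library 4, the lowest in excitatory markers, was high for Stmn1 (434.4 CPM, next 364.2) and Stmn4 (198.8 CPM, next 159.7). The other 3 were WT library 2 for Mapre1 (115.1 CPM, next 102.8), HET library 6 for Clip3 (621.9 CPM, next 541.4) and WT library 7 for Nefh (155.4 CPM, next 102.7).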

How the results depend on the processing

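The calls depended on tool and library. The genes called over the whole table (175) numbered 1195 at an adjusted p under 0.1, 1503 with DESeq2, 1934 with limma-voom, 106 with no filter, 13 with the excitatory covariate, 24 with 3 marker covariates, 692 without the 3 libraries lowest in excitatory markers (chosen after seeing the data), and 11 to 1672 with 1 library left out. Members called lower (0) numbered 4 at an adjusted p under 0.1, 5 with DESeq2, 6 with limma-voom, 5 without those 3 libraries and 0 to 8 with 1 left out; members called higher (0) numbered 1 with limma-voom and 0 to 1 with 1 left out. Of the wider list, 1 was called higher: 9 at an adjusted p under 0.1, 10 with DESeq2, 10 with limma-voom, 0 with no filter, 3 with a filter of 1 CPM in 7 libraries, 0 with either covariate set and 0 to 8 with 1 left out. Called lower were 2: 4 at an adjusted p under 0.1, 6 with DESeq2, 10 with limma-voom, 1 with no filter, 0 with either covariate set, 4 without the 3 libraries and 0 to 11 with 1 left out.

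With the replicate number as a replicate block, 10 genes were called in all, 0 members and 0 of the wider list. Same-numbered libraries correlated from -0.284 to 0.334 over genes. The labels do not say whether a number marks a litter or batch, and these correlations cannot settle it.

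Some directions turned between settings, and not all of the values stayed near 0. In edgeR, unadjusted p-values with the excitatory covariate and with all 3 were 0.0232 and 0.0088 for Tubb3 and 0.0423 and 0.037 for Camsap2. For Tuba1b they were 0.165 and 0.0277. Adjusted p-values of Tubb3, Camsap2 and Tuba1b ran from 0.19 to 0.578. The other genes that turned in these models had unadjusted p-values of 0.301 or more. With the excitatory covariate and with all 3, log2 fold changes were -0.222 and -0.219 for Tubb3, 0.0368 and 0.0366 for Map1a, 0.0216 and 0.0419 for Dcx, 0.132 and 0.13 for Camsap2, 0.0529 and 0.0509 for Clip3, -0.13 and -0.142 for Tuba1b, and 0.111 and 0.116 for Dync1h1; with all 3, Nefh was at -0.0173. Without the 3 libraries Tubb3 was at -0.131, Tuba1b at -0.057 and Camsap2 at 0.00335, and limma-voom gave 0.0216 for Nefl and 0.0556 for Nefm. With 1 library left out the ranges were -0.063 to 0.0925 for Tubb3, -0.1 to 0.0318 for Tubb4a, -0.0228 to 0.0494 for Map2, -0.0447 to 0.00531 for Mapt, -0.0394 to 0.0104 for Mapre1, -0.0711 to 0.0142 for Camsap2, -0.098 to 0.00587 for Nefl, -0.0669 to 0.0759 for Nefm, -0.119 to 0.0474 for Ina, -0.0805 to 0.00935 for Tuba1a, -4.62e-05 to 0.123 for Tuba1b, -0.0753 to 0.00264 for Stmn2 and -0.113 to 0.0399 for Dync1h1. The cause was not tested. With any RefSeq start as the gene start, 2 of the 41 members with an entry (Tubb5 and Map7) had a HET-only peak; Mapre2 and Stmn4 have no entry and drop out. Tuba1c, at 0.860 to 2.46 CPM, rests on the fewest counts of the members.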
